A study of Mus musculus with 20 samples.

Results

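The comparison set 5 CT26 tumours carrying mutant POLE, from mice injected with PBS (phosphate-buffered saline, the vehicle), against 5 CT26-vector tumours from PBS-injected mice. These 10 libraries are all those labelled PBS out of 20 in the series, and the other 10 are tumours of both kinds after anti-PD-1, an antibody against an inhibitory receptor of T cells. CT26 is a mouse colon carcinoma line that is grown as grafts in mice. The sources used here give 5 mice per group and Trizol RNA from whole tumours, but not the POLE substitution, how the mutant or the empty vector was delivered, whether either line is 1 clone, or the strain and age of the hosts. The series title names CHEK2, whereas every library label names POLE. A difference between the groups can therefore lie in the tumour cells, in the host cells of the tumour or in a property of the line that was grafted. In bulk RNA, fewer cells of a type and less RNA per cell cannot be told apart.

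DNA polymerase epsilon copies the leading strand and proofreads its own work, and POLE encodes its catalytic subunit. Tumours with mutations in its proofreading domain accumulate base substitutions, and such tumours are known for many neoantigens and infiltrating lymphocytes. Interferon-gamma, released by activated T and NK cells, induces chemokines, immunity-related GTPases and, through the transactivator CIITA, the MHC class II genes that present peptides to CD4 T cells.

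The deposited values were FPKM (fragments per kilobase of gene, scaled to the mapped fragments of the library). The 10 libraries summed to 332127 to 395938 FPKM and held 12474 to 13560 genes at 1 FPKM or more. Steps in the low values implied about 12200000 to 20500000 fragments per library. Mitochondrial genes held 8.60% to 11.1% of the sum in mutant tumours and 7.10% to 11.1% in vector tumours. Mutant tumour 3 stood apart from the other 9 tumours, at 52.1 on a first principal component that held 33.2% of the variance. Both kinds of tumour were low in the epithelial markers of colon. Epcam reached at most 0.575 FPKM in mutant tumours and 0.141 FPKM in vector tumours, while Krt20 lay at 53.7 to 93.6 FPKM in mutant tumours and 13.7 to 72.1 FPKM in vector tumours.

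Between mutant and vector tumours under PBS, 203 of 13982 genes differed, 74 of them higher and 129 lower in the mutant. A gene is called here when limma, fitted on log2(FPKM + 1) over all 20 libraries, gave a Benjamini-Hochberg adjusted p under 0.05. The calls were 1.45% of the genes tested, with 0.529% higher and 0.923% lower. The median log2 fold change was 1.16 among the genes called higher and -0.79 among those called lower, against 0.00 over all genes tested. A change of at least 2-fold was seen in 40 of the genes called higher and 44 of those called lower. The pseudocount makes these fold changes smaller than the ratio of FPKM in genes of low level. The 5 mutant and 5 vector values did not overlap in 183 of the 203 called genes, and in 9.05% of all genes tested. Fitted on the 10 PBS libraries alone, 924 genes (6.61%) were called, and 197 of the 203 were among them; the median standard error was 0.189 with all 20 libraries and 0.111 with the 10. Leaving out 1 tumour left between 83 genes called, without vector tumour 1, and 215, without mutant tumour 3. Without vector tumour 2 or 3 the count was 105 and 102, and without mutant tumour 1, 2 or 4 it was 129, 98 and 116. The 3 mutant and 3 vector tumours whose identifiers start with M gave 119 calls, and the 2 and 2 with a bare number gave 28.

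**Figure D1:**
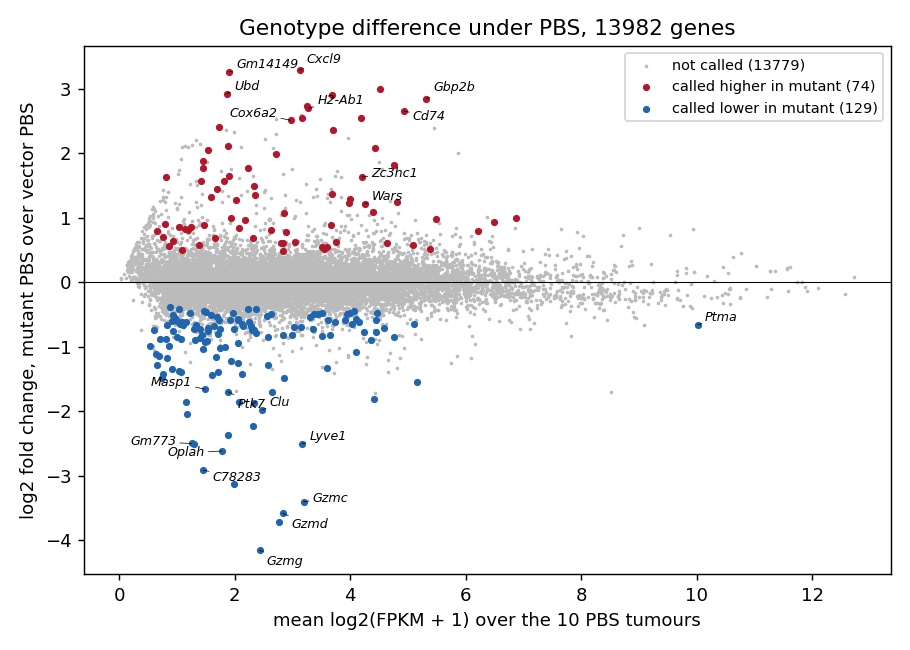
Log2 fold change, mutant PBS over vector PBS, against mean log2(FPKM + 1) over the 10 PBS tumours; each point is 1 of 13982 genes, coloured where limma called it. The 74 genes called higher include Cxcl9 and Ubd near 3, and the 129 called lower reach -4.16 at Gzmg.

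Pole itself was listed at 4.14, 4.63, 5.27, 6.35 and 5.73 FPKM in mutant tumours 1 to 5, against 6.45, 7.38, 9.50, 9.35 and 10.4 FPKM in vector tumours 1 to 5. Every mutant tumour lay below every vector tumour, as in 5.74% of all genes tested. The means were 5.22 ± 0.872 and 8.62 ± 1.64 FPKM (SD, n = 5 each), with a log2 fold change of -0.62 (SE 0.182) that limma did not call (adjusted p = 0.12). With the 10 PBS libraries alone the same difference was called (adjusted p = 0.0109). The gene-level values cannot tell the transcript of an introduced mutant from the mouse gene. Chek2, a checkpoint kinase, averaged 6.44 ± 1.34 FPKM in mutant tumours and 6.43 ± 1.23 FPKM in vector tumours, with adjusted p = 0.998.

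Of the 12 DNA polymerase genes tested, none was called. In 2 of them, Pole and Prim2, a primase subunit, every mutant tumour lay below every vector tumour, as in 5.74% of all genes tested. Prim2 had a log2 fold change of -0.54 (limma adjusted p = 0.238). None of 25 mitosis genes was called; 24 lay below 0 with a median log2 fold change of -0.36, and in 8 every mutant tumour lay below every vector tumour, as in 5.74% of all genes tested. The smallest p values among them belonged to motor and kinetochore proteins. Cenpe averaged 13.6 ± 3.58 FPKM in mutant tumours and 23.5 ± 2.67 FPKM in vector tumours, at log2 fold change -0.78 and adjusted p = 0.236. Cenpf gave -0.77 (adjusted p = 0.255) and the spindle motor gene Kif11 gave -0.70 (adjusted p = 0.256). Mutant tumour 1 held the lowest value of all 3. Among 26 p53 target genes the median was 0.21 and none was called. Cdkn1a, which encodes the cell cycle inhibitor p21, lay at 88.5, 75.8, 48.0, 88.8 and 81.9 FPKM in mutant tumours, against 29.8, 45.9, 36.5, 57.1 and 69.5 FPKM in vector tumours, with adjusted p = 0.191. Mutant tumour 3 fell within the vector range and the other 4 lay above it.

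The genes induced by interferon-gamma were among those that rose. All 28 genes of the list were tested, and each had a log2 fold change above 0. Of them 7 were called higher, where 0.529% of all genes tested were called higher. In 13 every mutant tumour lay above every vector tumour, as in 3.3% of all genes tested, and the median was 1.65. Among those with the smallest p values were Ubd, Tgtp1, Cxcl9 and Gbp2b. The 250 bases before the start of each are shown because factors that answer interferons are known to bind near the starts of genes of this kind. Sequences are 5′ to 3′ on the strand of the gene, from RefSeq on GRCm38.p6, in lower case with any motif in capitals.
Ubd (chr17:37193642-37193891, plus strand): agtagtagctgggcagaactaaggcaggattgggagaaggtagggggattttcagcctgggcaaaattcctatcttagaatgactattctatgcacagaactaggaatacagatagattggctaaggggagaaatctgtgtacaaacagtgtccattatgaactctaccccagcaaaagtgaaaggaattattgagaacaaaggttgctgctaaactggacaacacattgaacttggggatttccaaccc
Tgtp1 (chr11:48992247-48992496, minus strand): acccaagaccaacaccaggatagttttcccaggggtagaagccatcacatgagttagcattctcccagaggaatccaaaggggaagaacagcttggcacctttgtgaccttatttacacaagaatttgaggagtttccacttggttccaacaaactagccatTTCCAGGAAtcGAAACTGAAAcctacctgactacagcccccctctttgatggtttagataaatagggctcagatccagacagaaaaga
Cxcl9 (chr5:92328080-92328329, minus strand): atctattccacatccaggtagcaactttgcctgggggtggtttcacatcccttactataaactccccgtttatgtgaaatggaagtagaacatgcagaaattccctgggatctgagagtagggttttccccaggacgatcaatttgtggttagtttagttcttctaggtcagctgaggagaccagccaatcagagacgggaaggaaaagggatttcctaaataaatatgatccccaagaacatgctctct
Gbp2b (chr3:142594597-142594846, plus strand): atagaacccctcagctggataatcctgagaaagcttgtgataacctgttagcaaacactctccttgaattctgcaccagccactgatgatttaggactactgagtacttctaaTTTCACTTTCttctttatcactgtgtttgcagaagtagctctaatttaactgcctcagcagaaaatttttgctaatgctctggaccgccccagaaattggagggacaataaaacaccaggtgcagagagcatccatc
Capitals mark a GAS letter pattern (TTCNNNGAA) or an ISRE core (GAAA, any 2 bases, then GAAA), each searched on both strands. Tgtp1 held a GAS pattern from -88 to -80 and an ISRE core from -77 to -68, counted back from the base before the annotated start, with no overlap between them. The Tgtp1 window follows the RefSeq start and lies inside the span of the gene in GENCODE, chr11:48985327-48994172. The windows of Ubd, Cxcl9 and Gbp2b adjoin their GENCODE starts. Gbp2b held an ISRE core from -137 to -128, on the opposite strand to the gene. The windows of Ubd and Cxcl9 held neither pattern. Among 27025 promoter windows of the same length, 8.13% held the GAS pattern, 3.46% the ISRE core and 11.1% either of them.

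Ubd encodes a ubiquitin-like modifier induced by interferon-gamma. It was listed at 2.89, 8.05, 26.8, 12.3 and 6.66 FPKM in mutant tumours 1 to 5, against 0.705, 0.0800, 0.219, 0.472 and 0.192 FPKM in vector tumours. The lowest mutant tumour lay above the highest vector tumour, and mutant tumour 3 was highest. The log2 fold change was 2.93 (SE 0.440, limma adjusted p = 0.0019). Tgtp1, an immunity-related GTPase gene, was listed at 12.8, 31.6, 93.0, 62.7 and 19.01 FPKM in mutant tumours. In vector tumours it was listed at 8.01, 3.11, 3.84, 2.80 and 2.42 FPKM. Its log2 fold change was 2.90 (adjusted p = 0.0119), with mutant tumour 1 nearest to the vector range. Cxcl9, a chemokine that draws CXCR3-bearing T cells, was listed at 6.58, 28.5, 112, 35.4 and 15.6 FPKM in mutant tumours, against 5.27, 1.18, 1.87, 1.13 and 0.995 FPKM in vector tumours. Mutant tumour 1 and vector tumour 1 were close, and the other tumours were far apart. The log2 fold change was 3.29 (SE 0.643, adjusted p = 0.0125).

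Gbp2b, a guanylate-binding GTPase, was listed at 40.4, 82.6, 289, 215 and 62.3 FPKM in mutant tumours and 27.8, 11.8, 13.0, 12.1 and 9.41 FPKM in vector tumours. The groups did not overlap, at a log2 fold change of 2.85 (adjusted p = 0.0243). The immunity-related GTPase genes Tgtp2, Igtp and Iigp1 were also called higher, at log2 fold changes of 2.55, 2.09 and 2.37 (adjusted p = 0.0243, 0.0378 and 0.0481). In Iigp1 the groups overlapped, because mutant tumour 1 at 9.78 FPKM lay below vector tumour 1 at 11.1 FPKM. The related predicted gene Gm4841, which is not on the list, rose by 2.41 (adjusted p = 0.0297). Near-identical members such as Tgtp1 and Tgtp2 may share reads, so their split is uncertain. Cd274, which encodes PD-L1, lay at 7.86 to 32.2 FPKM in mutant tumours and 3.69 to 5.31 FPKM in vector tumours. Its groups did not overlap, and it was not called at a log2 fold change of 1.53 (adjusted p = 0.0938).

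Of the list, 21 genes were not called. Cxcl10, another CXCR3 ligand, had a log2 fold change of 0.72 (limma adjusted p = 0.653), and its groups overlapped. Ifng itself was listed at 0.190, 0.333, 4.46, 0.961 and 0.333 FPKM in mutant tumours, against 0 in vector tumours 1 to 4 and 0.0302 FPKM in vector tumour 5. All 5 mutant tumours lay above the vector tumours at levels mostly under 1 FPKM, and limma did not call the gene (adjusted p = 0.234). Wars, which encodes the interferon-inducible tryptophanyl-tRNA synthetase, was more even across tumours. It was listed at 23.9, 25.5, 29.1, 39.6 and 24.3 FPKM in mutant tumours and 9.51, 10.99, 10.99, 14.1 and 12.1 FPKM in vector tumours, a log2 fold change of 1.22 (adjusted p = 0.0378).

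Of 29 genes induced mainly by type I interferon none was called, and their median log2 fold change was 0.21. Irf9, part of the complex that type I interferon activates, had groups that did not overlap at a log2 fold change of 0.56 (limma adjusted p = 0.247). Zbp1, a sensor of nucleic acids, gave 1.33 (adjusted p = 0.136) with groups that overlapped. The difference between the lists was not tested.

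Cxcl9, Ubd and Tgtp1 stayed called in each of the 10 fits that left out 1 tumour. The number of interferon-gamma genes called fell to 3 without any one of vector tumours 2 to 5 or mutant tumours 2 to 4, and was 10 without mutant tumour 1. Tgtp2, Gbp2b, Igtp and Iigp1 lost their calls in those fits with 3. Gm4841 and Wars lost theirs in 8 and 9 of the 10. Within the M-style tumours (3 against 3) and within the number-only tumours (2 against 2) none of the 28 was called, while the median log2 fold change was 1.58 and 1.77, against 1.65 in all tumours.

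Class II antigen presentation rose with these genes. Of 12 genes listed 9 were tested and 6 were called higher, where 0.529% of all genes tested were called higher. In all 9 every mutant tumour lay above every vector tumour, as in 3.3% of all genes tested. The median log2 fold change was 2.56. H2-Ab1, a class II beta chain, was listed at 7.61, 29.7, 176, 18.7 and 8.98 FPKM in mutant tumours 1 to 5, against 2.71, 2.35, 4.78, 3.10 and 1.67 FPKM in vector tumours. Mutant tumour 3 was highest by far, and mutant tumours 1 and 5 lay nearest to the vector tumours. The log2 fold change was 2.70 (SE 0.590, limma adjusted p = 0.0252). Cd74, the invariant chain that escorts class II molecules, was listed at 37.7, 99.4, 493, 55.4 and 23.3 FPKM in mutant tumours and 12.9, 9.39, 16.4, 10.1 and 8.46 FPKM in vector tumours. It rose by 2.66 on the log2 scale (adjusted p = 0.0153). The chain genes H2-Eb1 and H2-Aa rose by 2.74 and 2.56, and H2-DMb1, part of the peptide exchange factor, by 2.11. H2-Ea-ps, which is named as a pseudogene in the C57BL/6 reference, rose by 3.01. The values do not show whether it is one in tumours of a BALB/c-derived line. The limma adjusted p values of these genes ran from 0.0243 in H2-Ea-ps to 0.0473 in H2-DMb1.

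H2-DMa, the partner of H2-DMb1, gave 1.08 and was not called (adjusted p = 0.134). Ciita, the class II transactivator, was listed at 0.217, 0.775, 5.19, 0.737 and 0.122 FPKM in mutant tumours, against 0.0320, 0.0415, 0.0937, 0.0633 and 0.0918 FPKM in vector tumours. Every mutant tumour lay above every vector tumour, yet most values were under 1 FPKM and the gene was not called (adjusted p = 0.304). Among 17 class I and peptide-loading genes none was called and the median was 0.56. Nlrc5, the class I transactivator, averaged 10.8 ± 5.70 FPKM in mutant tumours and 3.90 ± 0.460 FPKM in vector tumours without overlap, at 1.16 and adjusted p = 0.0866. No class II gene was called without vector tumour 1 or without vector tumour 2. Only 1 was called without vector tumour 5, mutant tumour 2 or mutant tumour 4, and 2 without vector tumour 3. Within the M-style and the number-only tumours the count was 0, with median log2 fold changes of 2.85 and 1.85.

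Serping1, the C1 inhibitor of the complement cascade, was the called member of 18 complement genes tested. It was listed at 26.7, 69.7, 164.5, 39.9 and 24.5 FPKM in mutant tumours and 11.3, 8.65, 20.6, 11.6 and 18.1 FPKM in vector tumours. The groups did not overlap, at a log2 fold change of 1.82 (SE 0.420, limma adjusted p = 0.0346). The call was lost in 7 of the 10 fits that left out 1 tumour, which left out vector tumours 1 to 4 or mutant tumours 2 to 4. The median of the complement list was 0.07.

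The clustered granzymes moved the other way from the class II genes. Granzymes are serine proteases of cytotoxic lymphocytes, and in mice the genes for granzymes B to G lie side by side on chromosome 14. Of 9 granzyme and perforin genes tested, 5 were called lower, where 0.923% of all genes tested were called lower. The 5 were Gzmc, Gzmd, Gzme, Gzmf and Gzmg. Gzmc was listed at 0.718, 1.15, 4.92, 3.52 and 0.767 FPKM in mutant tumours 1 to 5, against 96.5, 58.1, 24.3, 6.94 and 19.05 FPKM in vector tumours. No mutant tumour reached the lowest vector tumour, which was number 4, and the vector tumours themselves spanned a wide range. The log2 fold change was -3.40 (SE 0.670, limma adjusted p = 0.013). Gzmd was listed at 0.773, 0.688, 1.41, 1.40 and 1.12 FPKM in mutant tumours and 82.1, 81.3, 19.5, 3.28 and 14.3 FPKM in vector tumours, at -3.59 and adjusted p = 0.0177. Gzmg was listed at 0, 0.0688, 0.629, 0.582 and 0.230 FPKM in mutant tumours and 71.4, 88.5, 21.6, 2.03 and 12.8 FPKM in vector tumours, at -4.16 and adjusted p = 0.02. Vector tumours 1 and 2 were highest in all 3 genes and vector tumour 4 lowest.

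Gzme and Gzmf fell by 3.13 and 3.71 on the log2 scale (adjusted p = 0.0238 and 0.0292). The neighbour Gzmb, the main granzyme of cytotoxic T cells, was not called. It was listed at 1.03, 4.97, 26.01, 5.82 and 1.44 FPKM in mutant tumours, against 21.8, 14.4, 8.48, 3.06 and 6.999 FPKM in vector tumours. The highest and the 2 lowest values of Gzmb were all in mutant tumours, at a log2 fold change of -0.86 (adjusted p = 0.699). Gzma gave 0.32 (adjusted p = 0.914) and Prf1, the pore-forming perforin, -0.54 (adjusted p = 0.814). None of 18 T cell genes was called, and each had a log2 fold change above 0 with a median of 0.43. Cd8a, the CD8 coreceptor, was listed at 0.636, 1.81, 7.12, 0.145 and 0.0879 FPKM in mutant tumours and at most 0.128 FPKM in vector tumours, at 1.05 and adjusted p = 0.211. Trbc2, a T cell receptor constant gene, gave 1.36 (adjusted p = 0.13). Of 10 NK cell genes none was called, with a median of 0.09.

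The granzyme calls rested on few tumours. Without vector tumour 1 none of the 5 was called, and 1 was called without vector tumour 2, mutant tumour 1 or mutant tumour 2. Without vector tumour 5 the count was 3. It was 5 within the M-style tumours and 0 within the number-only tumours. The summed FPKM of the 9 genes was 5.91 to 62.3 in mutant tumours and 21.4 to 401 in vector tumours.

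**Figure D2:**
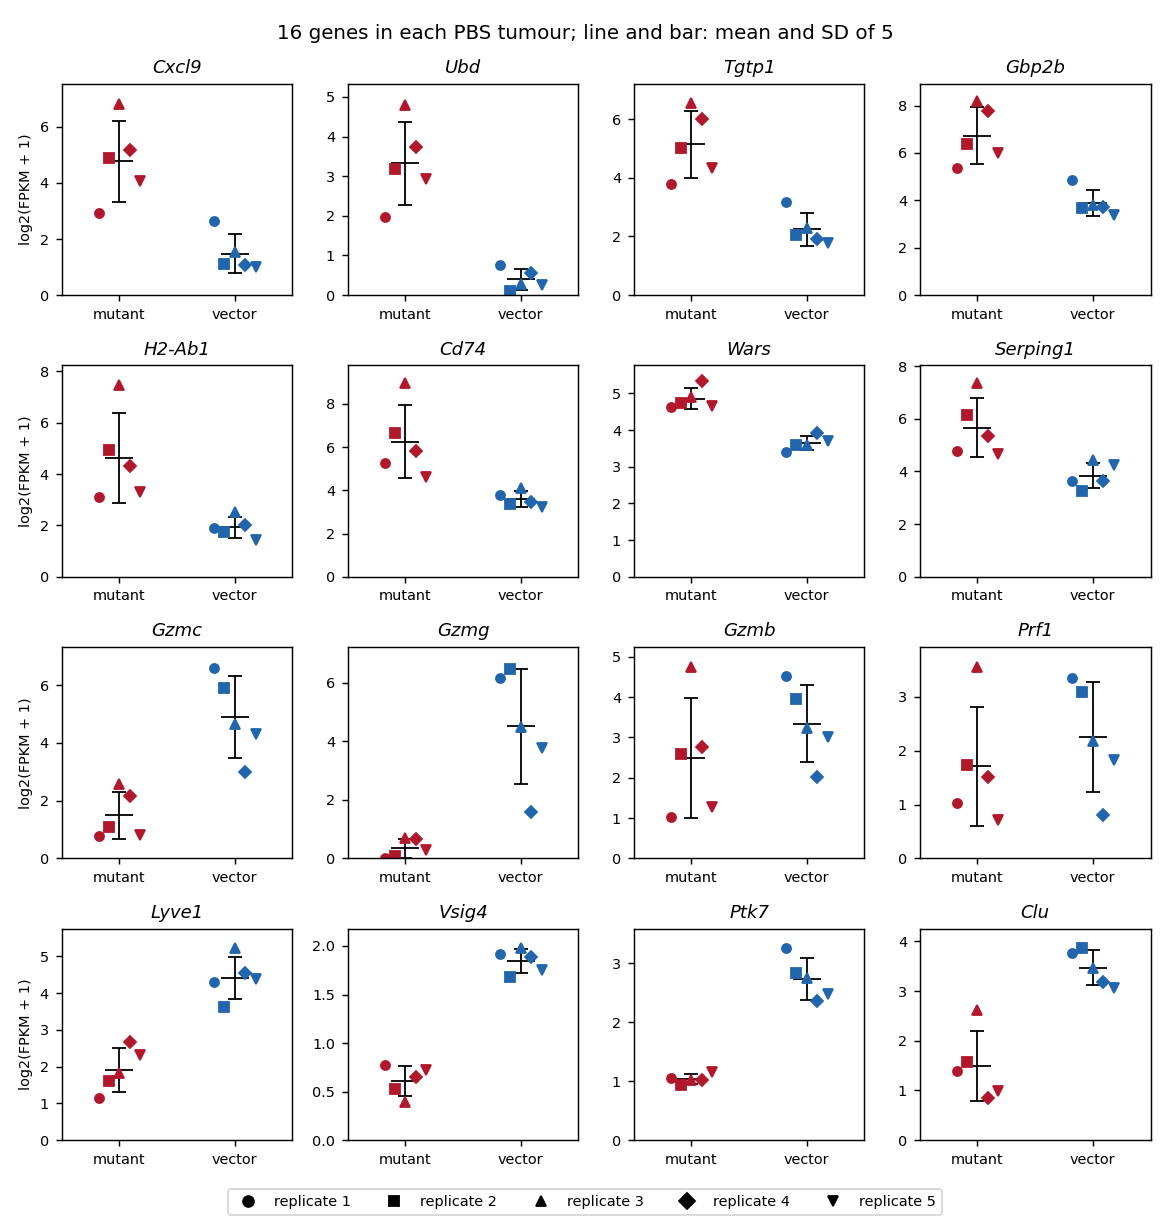
Log2(FPKM + 1) of 16 genes in each of the 5 mutant (left) and 5 vector (right) PBS tumours, with 1 symbol per replicate and the mean and SD beside them; Gzmb, Prf1 and Vsig4 were not called. Cxcl9, Ubd, Tgtp1 and the class II genes were highest in mutant tumour 3, Gzmc and Gzmg were high in vector tumours 1 and 2, and Gzmb and Prf1 overlapped.

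Several receptor genes of macrophages had lower values in the mutant without a call in the fit of all libraries. None of 22 macrophage genes was called, 10 lay above 0 and 12 below, and the median log2 fold change was -0.04. The pan-macrophage genes Adgre1, Csf1r and Cd68 overlapped between the groups. In 4 of the 22, Mrc1, Cd163, Vsig4 and Folr2, each mutant tumour lay below each vector tumour, as in 5.74% of all genes tested, and in none did each lie above. Vsig4, a complement receptor, was listed at 0.705, 0.437, 0.309, 0.572 and 0.646 FPKM in mutant tumours and 2.78, 2.21, 2.93, 2.71 and 2.37 FPKM in vector tumours. That is a log2 fold change of -1.23 with limma adjusted p = 0.087 over all 20 libraries and 0.000448 with the 10 PBS libraries alone. Mrc1, a mannose receptor, gave -1.15 (adjusted p = 0.174, and 0.015 alone). Cd163, the haemoglobin scavenger receptor, gave -1.34 (adjusted p = 0.427, and 0.0176 alone), and Folr2, a folate receptor, -1.13 (adjusted p = 0.266, and 0.0155 alone).

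Lyve1, a hyaluronan receptor of lymphatic endothelium and some tissue macrophages, was called. It was listed at 1.20, 2.04, 2.54, 5.39 and 4.02 FPKM in mutant tumours, against 18.9, 11.3, 36.4, 22.5 and 19.9 FPKM in vector tumours. All mutant tumours were below all vector tumours, and limma gave -2.50 on the log2 scale (SE 0.540, adjusted p = 0.0243). The call was lost in 6 of the 10 fits without 1 tumour, those without mutant tumour 1 or 2 or vector tumour 1, 3, 4 or 5. Of the other lymphatic genes only Pdpn passed the filter on low values, and its groups overlapped. Of 27 collagen and matrix genes, 22 lay below 0 with a median of -0.16, and none was called. The contractile genes Acta2 and Tagln were the 2 of the list with every mutant tumour above every vector tumour, as in 3.3% of all genes tested, at 0.91 and 0.98 (adjusted p = 0.419 and 0.297; 0.0199 and 0.027 with the PBS libraries alone). Dcn, a matrix proteoglycan, gave -1.39 (adjusted p = 0.391), with mutant tumour 3 at 36.8 FPKM and the other mutant tumours at 9.93 to 13.9 FPKM, against 26.9 to 47.0 FPKM in vector tumours.

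Skeletal muscle genes moved with the interferon-gamma and class II genes in part of the mutant tumours. The 22 muscle genes tested had a mean log2(FPKM + 1) of 0.505, 3.16, 5.19, 0.599 and 0.685 in mutant tumours 1 to 5, against 0.998, 0.593, 0.728, 0.603 and 0.584 in vector tumours. Their summed FPKM ranged over 52.5 to 1490 in mutant tumours and 55.4 to 66.0 in vector tumours. None was called, all 22 lay above 0, and the median log2 fold change was 1.29. The high tumours were mutant 2 and 3. Mutant tumour 4 was at the vector level for muscle and its mean log2(FPKM + 1) over the interferon-gamma list was 4.40, below mutant tumour 3 at 5.37 and above the other 8 tumours. The adipocyte list (8 genes tested, 0 called) had a median log2 fold change of 0.60. Its mean log2(FPKM + 1) was 0.832, 1.65, 3.48, 0.875 and 1.89 in mutant tumours 1 to 5, against 0.79 to 1.38 in vector tumours. The keratinocyte genes Krt5 and Krt14 reached at most 0.282 and 0.280 FPKM in mutant tumours and were listed at 0 in vector tumours. With the muscle mean as a covariate, 162 genes were called, among them 3 interferon-gamma, 1 class II and 2 granzyme genes. The median log2 fold changes of these lists were then 1.49, 2.15 and -2.92, against 1.65, 2.56 and -3.13 without the covariate. The part of muscle tissue in these results was not otherwise tested.

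**Figure D3:**
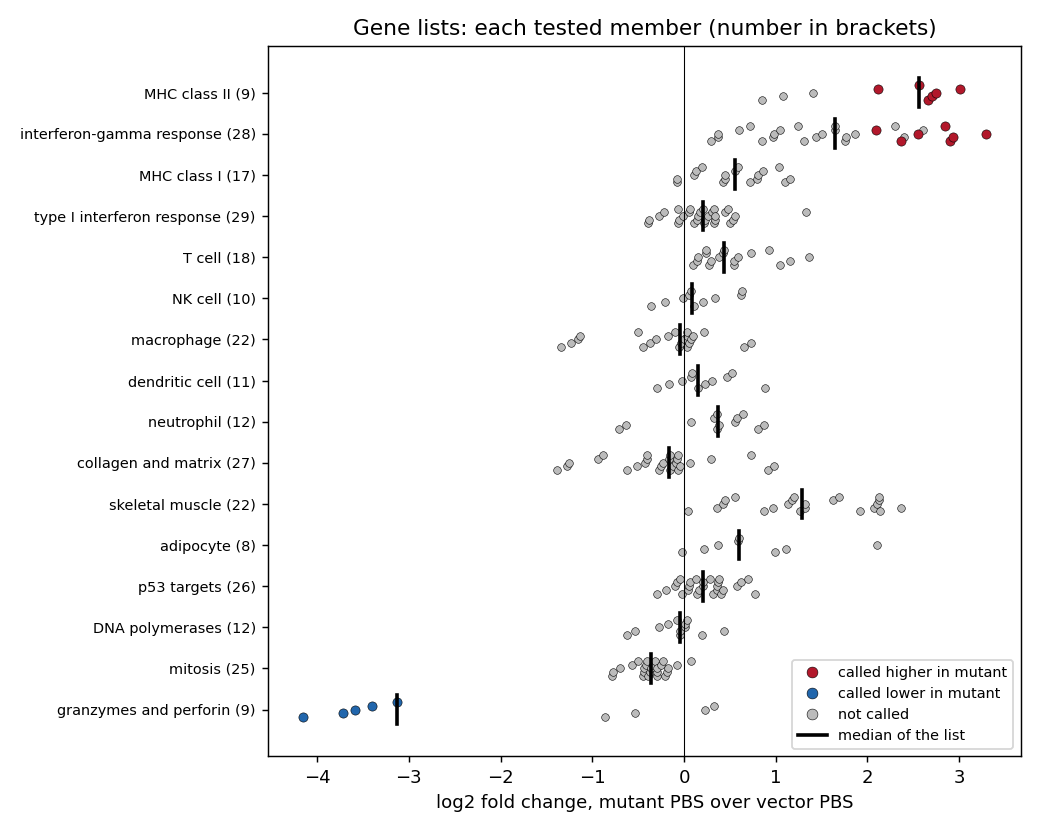
Log2 fold change, mutant PBS over vector PBS, of every tested member of 16 of the 46 gene lists, with the median of each list as a bar. Class II genes centre on 2.56 and interferon-gamma genes on 1.65, the granzyme list splits between 5 called genes near -3 to -4 and 4 nearer 0, and skeletal muscle genes spread up to 2.37 with none called.

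Over all 46 lists, 853 genes were named, 747 were tested and 21 were called, against 1.45% of all genes tested. Besides the genes above these were Lyve1 and Oplah, so most of the 203 calls lay outside the lists. Among the called genes 178 were protein coding and 19 were predicted genes.

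Several of the most even rises were in genes outside immunity. Cox6a2, the heart and muscle form of a cytochrome c oxidase subunit, was listed at 27.4, 19.6, 20.1, 12.8 and 12.5 FPKM in mutant tumours 1 to 5, against 1.85, 2.11, 2.77, 2.78 and 1.97 FPKM in vector tumours. The groups lay far apart, and the order of the mutant tumours was not that of the muscle list, since mutant tumour 1 was highest here. The log2 fold change was 2.52 (SE 0.360, limma adjusted p = 0.0013). Zc3hc1, a zinc finger protein of the nuclear pore basket, was listed at 33.5, 30.8, 34.0, 35.7 and 24.9 FPKM in mutant tumours and 7.75, 10.4, 9.71, 9.42 and 10.4 FPKM in vector tumours. It rose evenly in all 5 tumours, at 1.63 (adjusted p = 0.0266). Ndst4, an enzyme of heparan sulphate synthesis, rose by 1.78 (adjusted p = 0.00219), with 5.01 to 11.2 FPKM in mutant tumours and 1.09 to 2.21 FPKM in vector tumours.

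Gm14149 rose by 3.27 (adjusted p = 0.000141), with 9.001 to 12.8 FPKM in mutant tumours and at most 0.451 FPKM in vector tumours. The chloride channel family gene Clic5 rose by 1.65, the carboxylesterase gene Ces1f by 1.78 and the orphan receptor gene Gpr141 by 1.33, each with groups that did not overlap. Klra2, a Ly49 receptor gene whose relatives can share reads, rose by 1.22 and Grina, a glutamate receptor-associated protein gene, by 0.94. Cdsn, the corneodesmosin of cornified epithelium, rose by 1.99 (adjusted p = 0.0121). Mutant tumour 3 at 2.98 FPKM lay just above the highest vector tumour at 2.80 FPKM, and the other mutant tumours at 10.7 to 25.8 FPKM. Mutant tumour 3 was also lowest of the mutant tumours for Angptl6, a secreted angiopoietin-like protein gene, for P2rx3, an ATP-gated channel gene, and for the deubiquitinase gene Usp17la. These rose by 1.37, 1.36 and 1.46, and in each the groups overlapped.

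Cox6a2, Ndst4, Gm14149, Clic5, Ces1f, Gpr141 and Cdsn stayed called without any 1 tumour. Angptl6 and Klra2 kept their calls in 1 of the 10 such fits, Zc3hc1 in 2, Grina in 5, P2rx3 in 6 and Usp17la in 8. Zc3hc1 lost its call without vector tumour 1, 3, 4 or 5 and without mutant tumour 1, 2, 3 or 4.

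The genes that fell are given by the known role of their products, as an order of reading and not as groups that were tested. Tfpi, the inhibitor of the tissue factor pathway, was listed at 1.62, 0.911, 1.30, 1.05 and 1.28 FPKM in mutant tumours 1 to 5, against 7.56, 6.36, 7.54, 7.14 and 6.70 FPKM in vector tumours. Both groups were tight and far apart, at a log2 fold change of -1.86 (SE 0.288, limma adjusted p = 0.00211). Masp1, a protease of the lectin pathway of complement, was listed at 0.421, 0.552, 0.881, 0.449 and 0.600 FPKM in mutant tumours and 4.13, 3.24, 3.66, 4.46 and 4.45 FPKM in vector tumours. It fell by 1.66 on the log2 scale (adjusted p = 6.85e-05). Clu, the secreted chaperone clusterin, was listed at 1.63, 1.99, 5.15, 0.798 and 0.998 FPKM in mutant tumours and 12.6, 13.5, 10.04, 8.12 and 7.36 FPKM in vector tumours, at -1.98 and adjusted p = 0.000121. Mutant tumour 3 was nearest to the vector tumours for Clu and Masp1.

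The laminin chain genes Lama2 and Lamb1 fell by 1.85 and 0.64 (adjusted p = 0.0113 and 0.00357) and the collagen gene Col16a1 by 0.71 (adjusted p = 0.00246). The claudin genes Cldn6 and Cldn9, neighbours on chromosome 17 that encode tight junction proteins, fell by 1.81 and 1.49 (adjusted p = 0.00981 and 0.0269). Cldn6 was listed at 7.79, 11.8, 5.80, 9.86 and 21.0 FPKM in mutant tumours, against 44.9, 46.7, 46.1, 39.6 and 22.6 FPKM in vector tumours. Mutant tumour 5 lay just below vector tumour 5, the lowest of its group, and the other mutant tumours were far lower. Pkp3, a desmosomal plakophilin gene, fell by 0.92.

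Of the genes with roles in Wnt signalling or its neighbours, Ptk7, a pseudokinase coreceptor of planar polarity, was called and was listed at 1.08, 0.912, 1.02, 1.03 and 1.24 FPKM in mutant tumours, against 8.62, 6.17, 5.72, 4.12 and 4.57 FPKM in vector tumours. The mutant tumours were nearly equal and far below the vector tumours, at -1.70 (SE 0.260, limma adjusted p = 0.00199). Dkk2, a secreted Wnt antagonist, and Fzd6, a Wnt receptor, fell by 1.33 and 0.82 (adjusted p = 0.035 and 0.0243). Tcim, a small regulator of beta-catenin signalling, fell by 1.54 (adjusted p = 0.00211). Dusp9, a phosphatase of ERK kinases, averaged 2.87 ± 0.623 FPKM in mutant tumours and 8.39 ± 1.49 FPKM in vector tumours (SD, n = 5 each), at -1.28 and adjusted p = 0.00152.

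Among receptors and enzymes, Igf2r, the receptor that clears IGF2 and sorts lysosomal enzymes, averaged 2.52 ± 0.863 FPKM in mutant tumours and 10.4 ± 1.97 FPKM in vector tumours, at a log2 fold change of -1.71 (limma adjusted p = 0.00386). Mrc2, an endocytic collagen receptor, fell by 1.42 and Scara3, a scavenger receptor, by 1.88. The lysophosphatidic acid receptor gene Lpar1 fell by 0.62. Dio2, the deiodinase that activates thyroid hormone, fell by 2.37 (adjusted p = 0.00281), and Glod5, a glyoxalase domain gene, by 2.23 (adjusted p = 0.0019). Oplah, which opens 5-oxoproline in glutathione turnover, was listed at 0.204, 0.442, 0.638, 0.365 and 0.290 FPKM in mutant tumours and 3.48, 3.90, 3.98, 14.6 and 24.5 FPKM in vector tumours. Vector tumours 4 and 5, the number-only ones of the group, were several times above the other 3. No vector value overlapped with the mutant, and Oplah had a log2 fold change of -2.62 (limma adjusted p = 0.0121). It was the called member of 13 glutathione and redox genes tested.

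The organelle genes Miga1, of mitochondrial fusion, Odf2, of the centriole, and Casc4, of the Golgi, fell by 1.34, 1.03 and 1.03, each without overlap. The glutamate transporter gene Slc1a2 was listed at 0 in 4 mutant tumours and at 0.00757 FPKM in mutant tumour 2, against 0.325 to 5.52 FPKM in vector tumours. The pseudogene Hmgb1-ps8 lay at most at 0.0805 FPKM in mutant tumours and at 0.871 to 10.3 FPKM in vector tumours.

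Tfpi, Masp1, Clu, Lama2, Lamb1, Col16a1, Cldn6, Ptk7, Tcim, Dusp9, Igf2r, Scara3, Lpar1, Dio2, Glod5, Oplah, Miga1, Odf2, Casc4 and Hmgb1-ps8 stayed called without any 1 tumour. Dkk2 and Slc1a2 kept their calls in 1 of the 10 such fits, Pkp3 in 3, and Cldn9, Fzd6 and Mrc2 in 4. Of 81 called genes named here, 42 stayed called in all 10 fits and all 81 kept their direction.

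A few genes separated the groups by presence alone. Gm773 was listed at 0 in all 5 mutant tumours, against 7.71, 4.15, 4.63, 3.16 and 4.54 FPKM in vector tumours (limma adjusted p = 2.72e-08). The lincRNA C78283 was listed at 0 in all 5 mutant tumours, against 8.21, 5.83, 7.08, 5.42 and 6.47 FPKM in vector tumours (adjusted p = 1.29e-05). Plcxd3, a phospholipase C-like gene, was listed at 1.55, 2.18, 2.48, 2.19 and 2.14 FPKM in mutant tumours and at 0 in all 5 vector tumours (adjusted p = 0.000829). Gm773 varied most of the 3, with vector tumour 1 highest and vector tumour 4 lowest. Of the 7 genes listed at 0 throughout 1 group with a mean of at least 1 FPKM in the other, the remaining 4 were Cox8b, Cxcl13, Eef1a2 and Mb. They were listed at 0 in vector tumours and their highest values were in mutant tumour 3, at 14.6, 5.49, 6.44 and 15.3 FPKM. All 4 were also listed at 0 in mutant tumour 1, so their groups overlapped. None of the 4 was called (limma adjusted p = 0.581 to 0.699). Under anti-PD-1 Gm773 was again listed at 0 in mutant tumours, with a mean of 4.23 FPKM in vector tumours, and Plcxd3 was again listed at 0 in vector tumours.

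The median genotype difference was not the same on every chromosome. On chromosome 1, 648 of 871 genes tested (74.4%) had a log2 fold change below 0, with a median of -0.184, against 0.0018 over all genes. It held 27 genes called lower and none called higher, which is 3.1% of its genes, against 1.45% of all genes tested. With the PBS libraries alone 168 of its genes were called lower and 5 higher, where 4.26% of all genes were called lower and 2.35% higher. Relative to vector tumours, the median of chromosome 1 was -0.171, -0.172, -0.196, -0.180 and -0.179 in mutant tumours 1 to 5, and 0.003, -0.001, 0.028, -0.023 and -0.007 in vector tumours. The 5 mutant tumours lay close together and all below the vector tumours. Windows of 50 neighbouring genes were taken in steps of 25 genes, so each shares genes with the next and they are not separate regions. Of these, 30 of 33 on chromosome 1 lay below 0, and the chromosome held 27 of the 30 lowest of 527 windows. The lowest, at -0.293, spanned chr1:37890477-52161865 (mm10).

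Smaller shifts were seen on 3 other chromosomes. The median of 489 genes of chromosome 19 was -0.099, with all 18 windows below 0. Chromosome 18 stood at 0.111 over 371 genes and chromosome 15 at 0.096 over 556 genes. By tumour, chromosome 18 lay at 0.085 to 0.123 in mutant tumours and -0.092 to 0.047 in vector tumours, and chromosome 15 at 0.058 to 0.125 in mutant tumours and -0.035 to 0.044 in vector tumours. These medians depended on the tumours used: chromosome 18 stood at 0.163 in the M-style tumours and 0.033 in the number-only tumours, and chromosome 15 at 0.166 and 0.019. Under anti-PD-1 the medians of mutant over vector were -0.116 for chromosome 1, -0.099 for chromosome 19, 0.083 for chromosome 18 and -0.079 for chromosome 15. Without the 3 anti-PD-1 tumours least correlated with the rest they were -0.239, -0.143, 0.028 and -0.047. By tumour, chromosome 15 under anti-PD-1 lay at -0.203, -0.094, 0.041, 0.041 and 0.017 in mutant tumours 1 to 5, of which 1 and 2 are among those 3, and at -0.014 to 0.059 in vector tumours.

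**Figure D4:**
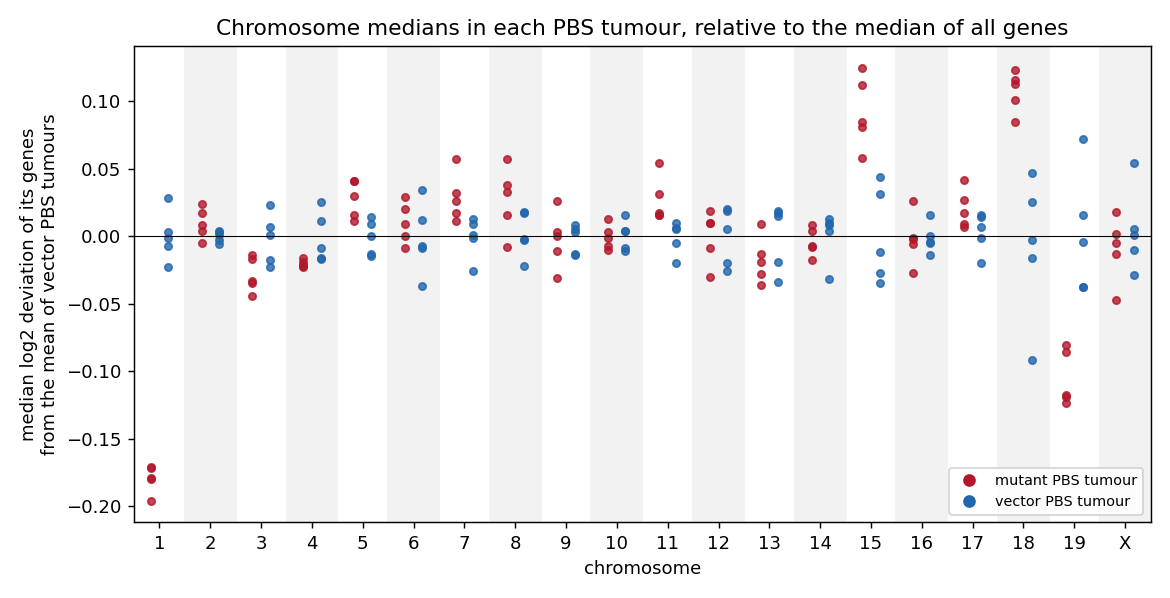
Median log2 deviation of each chromosome's genes from the mean of the vector PBS tumours, relative to the median of all genes, in each mutant (left of each pair) and vector (right) PBS tumour. The 5 mutant points lie at -0.196 to -0.171 on chromosome 1 and above the vector points on chromosomes 15 and 18.

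Named genes of chromosome 1 fell by modest amounts in every mutant tumour. Ptma, the abundant nuclear protein prothymosin alpha, was listed at 809, 733, 894, 743 and 984 FPKM in mutant tumours and 1446, 1209, 1256, 1227 and 1414 FPKM in vector tumours. No mutant tumour reached a vector tumour, at a log2 fold change of -0.66 (SE 0.139, limma adjusted p = 0.021). Tram1, of the protein translocation channel, fell by 0.90, Arl4c, a small GTPase, by 0.77 and Iars2, the mitochondrial isoleucyl-tRNA synthetase, by 0.73. Irs1, an adaptor of the insulin receptor, fell by 0.80 and Cops5, of the COP9 signalosome, by 0.47. Tram1, Arl4c and Iars2 stayed called without any 1 tumour, Ptma in 4, Cops5 in 2 and Irs1 in 1 of the 10 fits.

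Several zinc finger genes that lie together on chromosome 4, between 145585166 and 147513486 (mm10), fell. The ends of that interval are those of the called genes. Of 16 genes tested in it 7 were called lower, where 0.923% of all genes tested were called lower. The other 9 had log2 fold changes of -0.65 to 0.05. Zfp988, Zfp982, Zfp978, Zfp991, Zfp986 and Zfp992 and the predicted gene Gm13212 were those called, at log2 fold changes of -0.64 to -1.40. Zfp988 was listed at 0.240, 0.149, 0.253, 0.326 and 0.414 FPKM in mutant tumours, against 2.82, 2.04, 2.67, 2.36 and 1.75 FPKM in vector tumours. It fell by 1.38 (limma adjusted p = 1.29e-05) with groups far apart. Zfp982 and Zfp978 fell by 1.40 and 1.39 (adjusted p = 0.0019 and 0.00132). KRAB zinc finger genes of this cluster are near-identical, so reads may be split among them. Leaving out 1 tumour removed the call of Zfp992 in 9 of 10 fits and of Gm13212 in 7, and that of the other 5 genes in none.

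Of 33 mitochondrial genes tested 4 were called, all higher, where 0.529% of all genes tested were called higher. The median log2 fold change of the 33 was 0.388. Relative to vector tumours, their median lay at 0.370, 0.137, 0.152, 0.654 and 0.858 in mutant tumours 1 to 5. In vector tumours 1 to 5 it lay at 0.452, -0.048, -0.321, -0.029 and -0.032, so the groups overlapped. The called ones were the tRNA genes mt-Ta, mt-Tn and mt-Tp, at 1.29, 1.25 and 1.09, and the small ribosomal RNA gene mt-Rnr1 at 1.004 (limma adjusted p = 0.0125, 0.0272, 0.0208 and 0.035). Transcripts as short as tRNAs are poorly measured in FPKM of fragment libraries. Without single tumours mt-Ta stayed called in all 10 fits, mt-Tp in 6, mt-Tn in 3 and mt-Rnr1 in 2.

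The genes called under PBS were then read in the 10 anti-PD-1 tumours, which the PBS contrast does not compare. Of the 203, 176 (86.7%) had the same direction there, against 60.6% of all genes tested. In the same direction and called were 133 (65.5%), where 32.9% of all genes were called in either direction. Mutant tumours 1 and 2 and vector tumour 1 of the anti-PD-1 groups stood apart, with a mean Spearman correlation with the other libraries of 0.748, 0.835 and 0.776, where the remaining 17 libraries had 0.8995 or more. All 3 are M-style, and the 2 mutant ones are the only M-style mutant tumours under anti-PD-1. A fit without the 3 keeps 3 mutant tumours there, all number-only. It has fewer tumours and another split of styles, so its calls and those of the full fit are not like for like. Without these 3, 181 of the 203 (89.2%) had the same direction under anti-PD-1 and 131 were also called, against 63.3% and 23.2% of all genes. The genotype difference under anti-PD-1 minus that under PBS was called for 30 of the 203, against 9.35% of all genes, and without the 3 tumours for 16, against 2.77% of all genes. The 203 were chosen by their PBS difference, which is subtracted here, so selection alone can raise their share of called changes. No conclusion is drawn from that excess. Both contrasts share 1 estimate of the spread. Masp1 stood at -1.48 under anti-PD-1 against -1.66 under PBS. Cxcl9 gave 3.20 and Ubd 3.29 under anti-PD-1, against 3.29 and 2.93 under PBS. H2-Ab1 gave 4.89 under anti-PD-1 and 2.70 under PBS, a difference that was not called (limma adjusted p = 0.102). Serping1 gave 4.13 and 1.82, a difference that was called with all libraries (adjusted p = 0.0229) and not without the 3 tumours (adjusted p = 0.127).

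For 3 of the 5 clustered granzymes called lower under PBS, the genotype difference was not the same under anti-PD-1. Gzmd, Gzme and Gzmf had log2 fold changes of 0.18, 0.38 and 0.64 there, against -3.59, -3.13 and -3.71 under PBS, and limma called the change in all 3 (adjusted p = 0.0321, 0.0284 and 0.0291). Without the 3 tumours that stood apart the changes were 3.64, 3.44 and 4.41, against 3.76, 3.51 and 4.36 with them, and were not called (adjusted p = 0.0988, 0.0916 and 0.0907). Gzmc and Gzmg gave -1.46 and -0.59 under anti-PD-1, and their change was not called. Igf2r and Mrc2, called lower under PBS, gave 0.04 and 0.26 under anti-PD-1, and -0.68 and -0.45 without the 3 tumours. Angptl6 was the 1 gene of the 203 called in the opposite direction, at -1.37 under anti-PD-1 and 1.37 under PBS; without the 3 tumours it gave -1.08 under anti-PD-1 and was not called there (adjusted p = 0.072). Cdsn gave -0.87 and 1.99, and Cox6a2 0.59 and 2.52, both with a change that was called with and without the 3 tumours. Cldn6 and Dusp9 were lower in the mutant under both, at -3.01 and -1.77 under anti-PD-1.

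**Figure D5:**
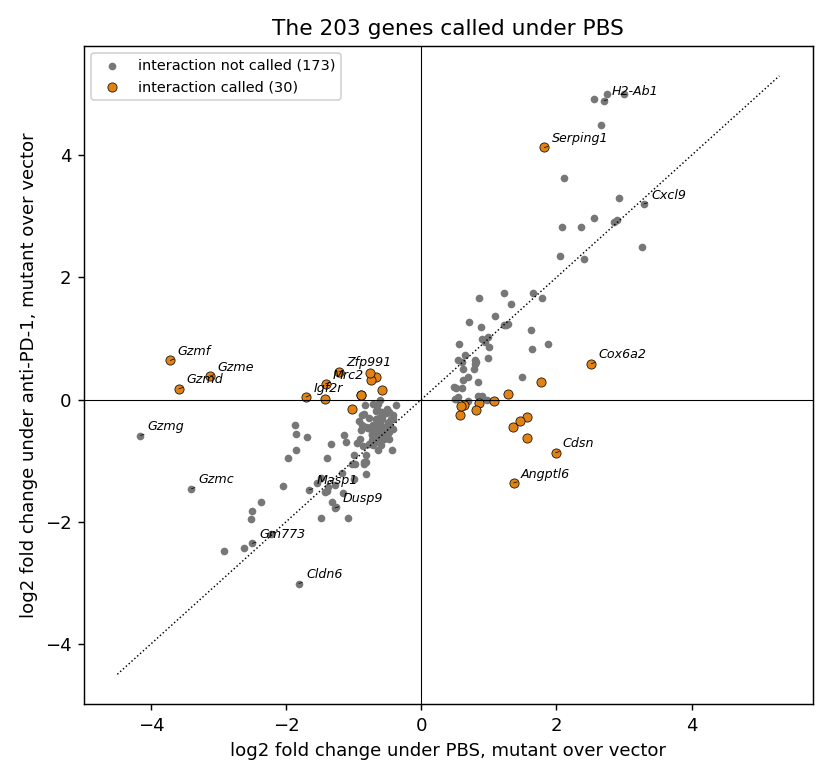
Log2 fold change, mutant over vector, under anti-PD-1 against that under PBS, for the 203 genes called under PBS; orange points are the 30 whose 2 differences differed by the interaction test, and the dotted line marks equality. Gzmd, Gzme and Gzmf lie near 0 under anti-PD-1, and Angptl6 is called in opposite directions.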

How the data were processed

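Bulk RNA-seq of CT26 tumours was deposited by the authors as 1 table of FPKM per library, made with STAR 2.5, Cuffnorm and mm10 per the submitters' processing notes. The unit is inferred from Cuffnorm, and no further scaling was applied. Depth is not given: fragments per library were read from steps in the low values, of which 41.4% to 50.5% lay within 0.05 of a whole number of fragments. Of 55335 genes listed, 55154 matched GENCODE vM21 by gene identifier. Genes at 1 FPKM or more in 5 of 20 libraries were tested (13982). On log2(FPKM + 1) of all 20 libraries, limma 3.58.1 under R 4.3.3 was run with a trend of variance on level. The model held 4 group means and the style of the animal identifier. M-style and number-only tumours are split 3 to 2 in both PBS groups. Under anti-PD-1 they are split 2 to 3 in mutant and 3 to 2 in vector tumours, so style is not balanced there. Before adjustment, limma p for style was under 0.05 in 2982 of 13982 genes, against 1536 for the PBS contrast. After adjustment 6 genes were called for style. What the style marks is not stated. P values were adjusted by Benjamini-Hochberg over all genes tested, at 0.05. Data were simulated over 13982 genes, with independent normal noise of 1 spread per gene in all 20 libraries. Changes were planted in 100 genes per size, none of low level. This fit recovered 74% of those of log2 size 1 and 97% of size 2. In the real data the spread differed between groups, with a median SD of 1.68 in mutant and 0.369 in vector tumours for class II genes. The simulated shares therefore do not measure recovery in these data.

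The comparison, the 46 gene lists and the rule for named genes were chosen with earlier results of these data known. Named were the 30 largest rises and falls at sufficient level, the 10 smallest p values in each direction, and called or leading members of each list. Chosen after their values were seen were Ifng, Cxcl10, Ciita, H2-DMa, Gzma, Gzmb, Prf1, Wars, Klra2, Grina, the mitochondrial genes, Lamb1, Col16a1, Pkp3, Fzd6, Slc1a2, Lpar1, the zinc finger cluster and the genes of chromosome 1. Motif patterns in promoters were not compared between gene sets, because fewer than 80% of the genes matched the promoter table. Reads of tumours from a BALB/c-derived line were aligned to a C57BL/6 genome, which can lower the values of divergent genes in both groups. The values of some genes are not reported here.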

Additional observations from a re-analysis of the deposited data

Results flagged for a closer look

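In 14 of 216 sets of 5 values (108 genes in 2 groups), 1 tumour stood apart by Dixon's criterion, and chance alone gives about 1 in 20 sets. In mutant tumour 3 these were Cdkn1a at 48.0 FPKM, Ciita at 5.19 FPKM, Dcn at 36.8 FPKM and Miga1 at 0.328 FPKM. In mutant tumour 1 they were Prim2 at 2.39 FPKM and Kif11 at 7.31 FPKM, and in mutant tumour 2 Slc1a2 at 0.00757 FPKM and Zfp986 at 0.293 FPKM. In vector tumour 1 it was Gm4841 at 0.806 FPKM, in vector tumour 3 Cd8a at 0.128 FPKM and Zfp991 at 6.62 FPKM, in vector tumour 4 P2rx3 at 4.77 FPKM, and in vector tumour 5 Ifng at 0.0302 FPKM and Cldn6 at 22.6 FPKM.

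For 22 of the 108 genes the genotype difference under anti-PD-1 differed from that under PBS, by limma's interaction term adjusted over all genes. Of all genes tested, 9.35% were called so. Many of the 108 were chosen by their PBS difference, which this term subtracts, so selection alone can raise their share. In log2 fold change, anti-PD-1 minus PBS, the immune genes were higher under anti-PD-1: Gzmf by 4.36, Gzmd by 3.76, Gzme by 3.51, Gzmb by 3.38, Prf1 by 2.77, Trbc2 by 2.53, Cd8a by 2.40, Serping1 by 2.31, Ciita by 2.10 and Ifng by 1.75. Adjusted p ran from 0.00899 for Cd8a to 0.0321 for Gzmd. Igf2r (1.75), Mrc2 (1.67), Zfp991 (1.67), Zfp992 (1.19), Tram1 (0.97) and Odf2 (0.87) also lay above 0. Below 0 were Cdsn (-2.86), Angptl6 (-2.73), Cox6a2 (-1.93), P2rx3 (-1.81), Usp17la (-1.80) and Ndst4 (-1.49). Angptl6 had the smallest adjusted p of the 22, at 0.0029. Without the 3 anti-PD-1 tumours least correlated with the rest, 12 of the 22 were called, against 2.77% of all genes, and none changed sign. Those not called were Gzmf, Gzmd, Gzme, Gzmb, Serping1, Ciita, Ifng, Mrc2, Tram1 and Usp17la.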

How the results depend on the processing

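No paired analysis was possible because replicate numbers follow the order of the libraries and pair no tumours. All 81 called genes named above kept their direction under 24 alternatives, and 10 kept their call under every one. Leaving out 1 tumour gave 83 to 215 genes called, 22 to 79 higher and 61 to 136 lower; 3 to 10 interferon-gamma, 0 to 6 class II and 0 to 5 granzyme genes; 6 to 22 list genes; 75.3% to 94.6% of calls with the same sign under anti-PD-1; a chromosome 1 median of -0.195 to -0.167; and -0.683 to -0.528 for Pole. Chek2 went either side of 0, from -0.049 to 0.062, and Gzma from -0.015, without mutant tumour 3, to 0.530 without mutant tumour 1. Chek2 was also above 0 in TPM (0.014), with sample weights (0.009) and in the number-only tumours (0.002).

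The 10 PBS libraries alone gave 924 calls (329 higher, 595 lower), 55 list genes, 76.2% with the same sign, and a called Pole at -0.621. Without the 3 anti-PD-1 libraries least correlated with the rest there were 1643 calls (683 and 960), 17 interferon-gamma and 115 list genes, 73.2% and Pole called at -0.621. Sample weights gave 2710 (1193 and 1517), 25, 181, 66.3% and Pole called at -0.602. TPM gave 100 (29 and 71). M-style tumours gave 119 (42 and 77), 12 list genes and 92.4%, with 0 interferon-gamma and 0 class II genes. Number-only tumours gave 28 (9 and 19), 4 list genes, 78.6% and a chromosome 1 median of -0.220, with 0 genes of the 3 lists. Pole was called with median scaling (-0.628) and quantile normalization (-0.632), which called 33 and 35 list genes, and median scaling 11 interferon-gamma genes. Without the filter the counts were 3 interferon-gamma, 1 class II, 3 granzyme and 9 list genes, and with the muscle covariate 3, 1, 2 and 9, with 79% of the same sign. Without the identifier term 3 granzyme genes were called. The chromosome 1 median was -0.220 with pseudocount 0.1 and -0.007 without the filter, where most genes are near 0; those of chromosomes 15, 18 and 19 kept their sign under the 24 alternatives, at 0.007 to 0.166, 0.003 to 0.163 and -0.119 to -0.012. An alternative chosen after seeing the data read the anti-PD-1 contrasts without the 3 anti-PD-1 libraries least correlated with the rest: 16 of the 203 genes then had a called change between treatments, against 30. The cause of these changes was not tested. FPKM without counts give no counting interval, and values under 1 FPKM rest on few fragments.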
